A study of Rattus norvegicus with 6 samples.

Results

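Expression of 38 genes of fatty acid oxidation was examined in rat liver after wound dressing. The genes were taken by symbol from a list that had been drawn up with earlier results of these data known, and all 38 were found among the 20104 genes of the deposited tables. Of these, 16 encode proteins of the mitochondrial steps and 16 of the peroxisomal steps. The other 6 are the regulator Ppara, the cytosolic proteins Acot1 and Fabp1, and Acad11, Eci2 and Crat, whose products work in both organelles. Livers had been injured and covered with a haemostatic dressing, and the repaired tissue was taken on day 14. The wound was covered with AKOC in 3 libraries and with the commercial dressing Quik-clot, the control, in 3 libraries. The labels do not expand AKOC, and the title of the series names kaolin scales anchored on cotton. All 6 samples were injured and dressed liver. The sources used here do not give strain, sex, age or hour of collection. They also do not say which libraries share an animal, so the p-values below rest on a spread between libraries that may be technical.

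Fatty acids are burned in liver at both organelles. Long chains enter mitochondria as carnitine esters made by CPT1A, the controlled entry step, and are then shortened in repeated rounds of dehydrogenation, hydration, a second dehydrogenation and thiolytic cleavage. Electrons from the first dehydrogenation pass through the electron transfer flavoprotein to the respiratory chain. Peroxisomes shorten very long and branched chains and bile acid side chains with oxidases that make hydrogen peroxide, and hand the shortened acids on as carnitine esters or free acids. Many of these genes are targets of PPAR-alpha, a nuclear receptor activated by fatty acids and prominent in the fasted liver.

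None of the fatty acid oxidation genes passed the test between dressings. The edgeR quasi-likelihood test with Benjamini-Hochberg adjustment over 13872 genes called 0 members and 0 genes in all (0%), with adjusted p from 0.281 to 0.978 over the 36 members tested. At an unadjusted p under 0.05 there were 10 members (27.8%), against 12.5% of all genes tested. Of these 10, Acads, Acadl, Etfa, Etfdh and Eci2 were higher after AKOC, where the background is 6.78%, and Decr1, Eci1, Cpt1a, Acot4 and Ppara were lower, where it is 5.69%. The count of higher members, taken over all members and not only these 10, depended on single libraries. It was 1 without AKOC replicate 2, and 2 each without AKOC replicate 3, Quik-clot replicate 1 or Quik-clot replicate 3. Without Quik-clot replicate 1 the higher members were Acads and Ehhadh, which is not among the 10. The count of lower members, also over all members, was 3 without AKOC replicate 3 or Quik-clot replicate 1. Without AKOC replicate 3 they were Decr1, Eci1 and Abcd2, and the main test had left out Abcd2. Without Quik-clot replicate 2 the counts were 7 higher and 10 lower. The share of all genes with an unadjusted p under 0.05 moved as well, to 8.36% when AKOC replicate 2 was left out and 7.62% for AKOC replicate 3, and to 9.67%, 17.4% and 9.73% when Quik-clot replicates 1, 2 and 3 were left out in turn. DESeq2, run as an alternative, called Decr1 and Abcd2 lower at an adjusted p under 0.05, against 2.02% of the genes it adjusted, and limma-voom called 0 members.

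The differences were not smaller in size than those of genes at large. The median absolute log2 fold change was 0.25 over the tested members and 0.21 over all genes tested. No tested member had a log2 fold change beyond 1 in either direction, where 755 of the 13872 genes tested did. Few genes in all were beyond 1, so this says little about the members. The median over the 36 tested members was 0.04, with 20 positive and 16 negative, beside a median of -0.01 over all genes tested. Mitochondrial members had a median of 0.02 (9 positive, 7 negative). Of these, 7 of 16 (43.75%) had an unadjusted p under 0.05, with 4 higher and 3 lower, against 12.5% of all genes tested. With library totals only, the unadjusted p of the 4 higher ones ran from 0.0592 (Acads) to 0.290 (Etfa), while the 3 lower ones stayed under 0.05. Peroxisomal members had a median of 0.08 (9 positive, 6 negative), and 1 of the 15 tested (6.67%), Acot4, had an unadjusted p under 0.05. With library totals only, the signs were 6 positive and 10 negative for mitochondrial members and 7 positive and 8 negative for peroxisomal members. On log2 FPKM they were 6 against 10 and 8 against 7. Whether the compartments differ in this was not tested. Levels of the dressings did not overlap for 11 members (30.6%), against 18.4% of all genes tested, and 6 of the 11 were higher after AKOC and 5 lower.

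**Figure D1:**
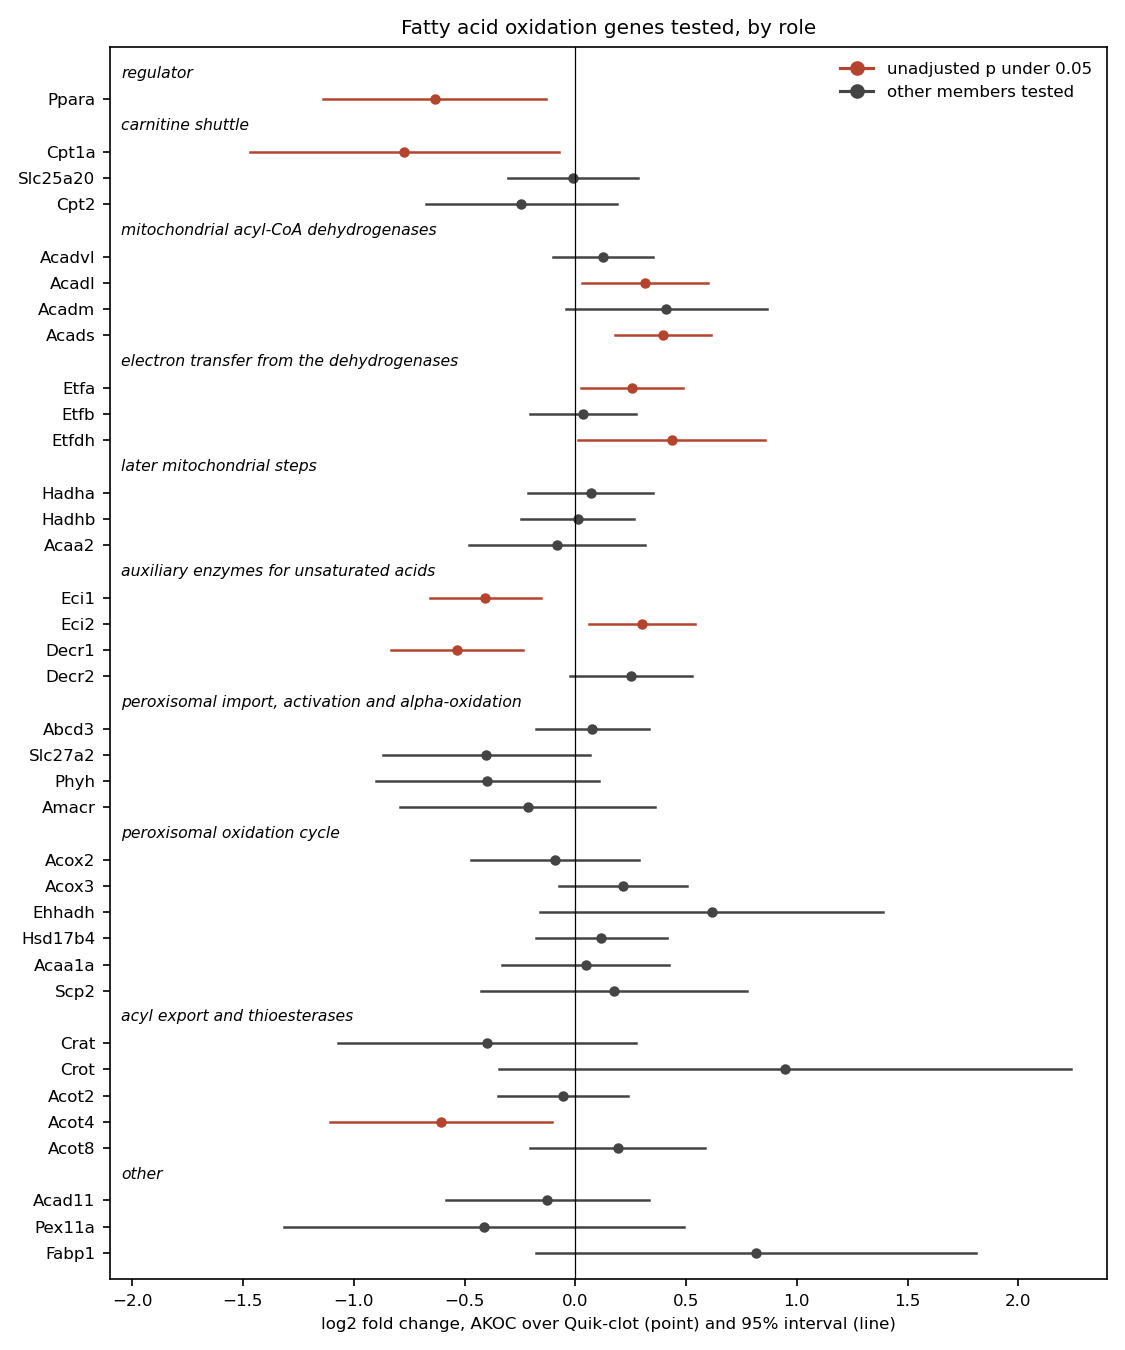
Log2 fold change, AKOC over Quik-clot, of the 36 tested members (points) with 95% intervals (lines), grouped by role; red marks an unadjusted p under 0.05. The mitochondrial dehydrogenase and electron transfer genes lie right of 0 (Etfb turned negative with library totals only and on log2 FPKM), and the intervals of 26 members span 0.

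Together the members took 0.839% to 1.08% of all counts with Quik-clot and 0.933% to 1.07% with AKOC, and these ranges overlapped. Mitochondrial members took 0.242% to 0.292% and 0.248% to 0.292%, and peroxisomal members 0.498% to 0.636% and 0.492% to 0.568%. Between genes, levels are compared as FPKM, fragments scaled to transcript length and library total. The highest mean over the 6 libraries was that of Fabp1, the liver fatty acid binding protein, at 3037 FPKM. Next came peroxisomal genes, with Phyh, which starts the alpha-oxidation of phytanic acid, at 871 FPKM, Scp2, which encodes a peroxisomal thiolase and sterol carrier, at 434 FPKM, and Slc27a2, a very long-chain acyl-CoA synthetase, at 337 FPKM. The mitochondrial thiolase Acaa2 followed at 212 FPKM and the medium-chain dehydrogenase Acadm at 201 FPKM.

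At the other end were the receptor gene Ppara at 9.66 FPKM, the thioesterase Acot4 at 6.20 FPKM, the peroxisome division gene Pex11a at 4.76 FPKM, and the thioesterases Acot2 at 4.40 FPKM and Acot8 at 3.17 FPKM. The peroxisomal transporter gene Abcd2 averaged 0.119 FPKM and the thioesterase Acot1 0.00774 FPKM, and both were left out of the main test by the filter on low counts. Acot1 had at most 1 count in any library. It is one of several neighbouring, closely related thioesterase genes, so how the counting divided reads among them is uncertain.

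**Figure D2:**
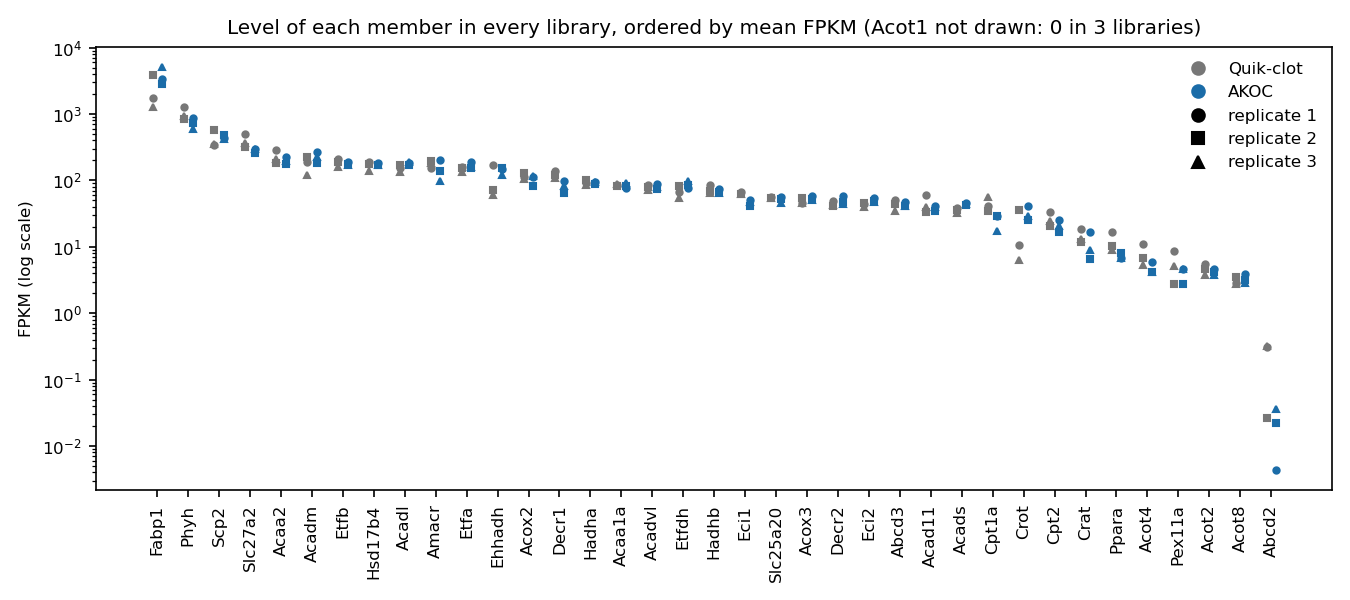
FPKM (log scale) of 37 members in each of the 6 libraries, ordered by mean; grey is Quik-clot, blue AKOC, and the symbol marks the replicate. Levels run from Fabp1 at 3037 FPKM on average to Abcd2 at 0.119 FPKM, and for most genes the libraries of the dressings lie close together.

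PPAR-alpha binds DNA with its partner RXR at direct repeats of a short sequence whose unit is AGGTCA, so the members' promoters were searched for it. RefSeq promoter windows (GRCr8 build, 250 bases before to 50 after the annotated start) matched 35 of the 38 members, with no entry for Acadl, Acaa2 and Decr1. AGGTCA, on either strand, was present in 12 of these 35 windows (34.3%) and in 16.2% of all 33469 windows of the same length. The repeat AGGNCANAGGNCA, which joins such units in a looser spelling with N for any base, was also searched on either strand. It was present in the window of Fabp1 alone among the 35, and in 0.415% of all windows. That Fabp1 stands alone depends on this spelling, which frees only the fourth base of each unit and the base between units. In the stretch of Acot8 below, a unit that differs at its first base precedes the match, and such spellings were not searched. A match is a description of letters and shows no binding. The last 100 bases before the start are shown for 4 of the members with a match in that stretch, because Fabp1 carries the repeat, Slc27a2 has its match at a like distance from the start, Eci1 is among the genes with the smallest p, and Acot8 has its match close to the start. Capitals mark the matches, read 5′ to 3′ on the gene's strand, where TGACCT is AGGTCA on the opposite strand.
Fabp1: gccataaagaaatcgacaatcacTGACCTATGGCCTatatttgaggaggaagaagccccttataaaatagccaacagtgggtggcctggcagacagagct
Slc27a2: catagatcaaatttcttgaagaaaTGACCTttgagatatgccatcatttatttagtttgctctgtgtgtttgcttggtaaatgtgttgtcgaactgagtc
Eci1: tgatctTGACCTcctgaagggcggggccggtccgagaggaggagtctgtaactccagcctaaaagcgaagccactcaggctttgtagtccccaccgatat
Acot8: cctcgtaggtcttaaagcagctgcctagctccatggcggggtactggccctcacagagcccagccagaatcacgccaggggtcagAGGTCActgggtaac
These stretches are chr4:104749240-104749339 (plus strand) for Fabp1, chr3:134258001-134258100 (plus) for Slc27a2, chr10:13961150-13961249 (plus) for Eci1 and chr3:173962189-173962288 (minus) for Acot8, all in GRCr8. The start used for Fabp1 lies inside a longer gene model of the same gene. Its repeat covers positions -77 to -65 from the start, and the match of Slc27a2 covers -76 to -71. The match of Acot4, whose stretch is not shown, covers -6 to -1, closer to the start than that of Acot8 at -15 to -10. Of the 10 members with an unadjusted p under 0.05, Acot4, Eci1 and Eci2 have an AGGTCA match in the window, and Acads, Cpt1a, Etfa, Etfdh and Ppara have none there.

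Ppara itself was lower in every AKOC library. It stood at 142, 91.3 and 93.1 CPM (counts scaled to 1000000 per library after the TMM correction of library size) in Quik-clot replicates 1, 2 and 3 and at 58.1, 84.6 and 67.3 CPM in the AKOC libraries. The groups did not overlap, but the gap between Quik-clot replicate 2 and AKOC replicate 2 was narrow and Quik-clot replicate 1 stood highest. The log2 fold change was -0.63 ± 0.21 (SE; adjusted p = 0.345). Leaving out Quik-clot replicate 1 gave -0.40.

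Cpt1a, which encodes the entry enzyme of the carnitine shuttle, showed the same direction with a wider spread. Its levels were 178, 158 and 302 CPM with Quik-clot and 130, 156 and 88.0 CPM with AKOC. The highest AKOC library lay just under the lowest Quik-clot library, and Quik-clot replicate 3 stood well above all others. The log2 fold change was -0.77 ± 0.30 (adjusted p = 0.375) and came to -0.43 without Quik-clot replicate 3. The remaining shuttle genes overlapped between dressings. Slc25a20, the carnitine-acylcarnitine carrier, averaged 93.9 ± 10.3 CPM with Quik-clot and 93.2 ± 8.80 CPM with AKOC (mean ± SD, n = 3 per dressing), with a 95% interval of the log2 fold change from -0.30 to 0.28. Cpt2, which returns the acyl group to CoA inside the mitochondrion, averaged 60.6 ± 13.6 and 51.2 ± 6.12 CPM (interval -0.67 to 0.19), and its log2 fold change of -0.24 came to -0.41 without Quik-clot replicate 2 (adjusted p = 0.213).

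The 4 mitochondrial acyl-CoA dehydrogenases among the members, which catalyse the first oxidation for successive chain lengths, all had positive log2 fold changes. Related genes outside the members did not share 1 direction. Acad9 was positive (0.58 ± 0.24), while Acadsb (-0.02 ± 0.23) and Acad10 (-0.15 ± 0.27) were negative, each with overlap between dressings. For the short-chain enzyme Acads the levels were 60.2, 58.9 and 61.5 CPM with Quik-clot and 74.8, 81.9 and 81.0 CPM with AKOC. Every AKOC library stood above every Quik-clot library, and the Quik-clot libraries lay within a few CPM of each other. Its log2 fold change of 0.40 ± 0.09 had the smallest p of all members (unadjusted p = 0.00342, adjusted p = 0.281). Acadl, the long-chain enzyme, stood at 198, 230 and 218 CPM with Quik-clot and 246, 270 and 288 CPM with AKOC, again without overlap (0.31 ± 0.12, adjusted p = 0.375). Acadm, the medium-chain enzyme, had a log2 fold change as large (0.41 ± 0.19, adjusted p = 0.425), but its groups overlapped, since Quik-clot replicate 2 at 412 CPM exceeded AKOC replicate 2 at 394 CPM. Without Quik-clot replicate 3 the value for Acadm was 0.26, and without Quik-clot replicate 2 it was 0.59 (adjusted p = 0.195). Acadvl, the very long-chain enzyme at the inner membrane, averaged 163 ± 4.65 and 178 ± 2.63 CPM without overlap (0.13 ± 0.10).

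Genes that carry electrons away from these dehydrogenases were positive as well, except that Etfb turned negative with library totals only, on log2 FPKM and without AKOC replicate 2. Etfa, the alpha subunit of the electron transfer flavoprotein, stood at 184, 186 and 190 CPM with Quik-clot and at 228, 221 and 220 CPM with AKOC. These levels did not overlap and each dressing's libraries were close together (log2 fold change 0.26 ± 0.10, adjusted p = 0.373). The log2 fold change of Etfa stayed between 0.24 and 0.27 with any 1 library left out, but its unadjusted p was then above 0.05 in each case. Etfdh, which passes the electrons to ubiquinone, had levels of 151, 198 and 156 CPM and of 181, 238 and 264 CPM. Here AKOC replicate 1 lay under Quik-clot replicate 2, so the groups overlapped (0.43 ± 0.18, adjusted p = 0.391). Etfb, the beta subunit that pairs with Etfa, averaged 151 ± 4.81 and 155 ± 9.38 CPM, with an interval from -0.20 to 0.27.

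The members of the later steps of the mitochondrial round showed no difference beyond the spread between libraries. Hadha and Hadhb encode the alpha and beta subunits of the trifunctional protein, which carries out the later steps on long chains. Hadha averaged 227 ± 18.4 CPM with Quik-clot and 238 ± 17.4 CPM with AKOC (interval -0.21 to 0.35). Hadhb averaged 174 ± 12.8 and 175 ± 8.19 CPM (interval -0.24 to 0.27). Acaa2, the thiolase of medium chains, stood at 410, 273 and 370 CPM with Quik-clot and 341, 321 and 333 CPM with AKOC. All 3 AKOC values of Acaa2 lay inside the Quik-clot range. Acot2, a mitochondrial thioesterase that frees acids from CoA, averaged 14.1 ± 1.28 and 13.6 ± 0.99 CPM. Outside the members, Hadh was positive with overlap (0.36 ± 0.18, adjusted p = 0.450). Hsd17b10 was higher after AKOC without overlap (0.29 ± 0.15, adjusted p = 0.456).

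Enzymes that prepare unsaturated fatty acids for these rounds differed in direction among themselves. Decr1, the mitochondrial dienoyl-CoA reductase, stood at 147, 133 and 145 CPM with Quik-clot and at 109, 83.5 and 101 CPM with AKOC. All AKOC libraries were below all Quik-clot libraries, with a log2 fold change of -0.53 ± 0.13 (edgeR adjusted p = 0.286, DESeq2 adjusted p = 0.0391). Eci1, the mitochondrial enoyl-CoA isomerase, was lower in the same way, at 57.2, 57.2 and 67.2 CPM against 45.0, 44.7 and 47.4 CPM (-0.41 ± 0.11, adjusted p = 0.296). Decr1 and Eci1 kept an unadjusted p under 0.05 in each of the 15 alternative settings run, which none of the other 8 did. The number of settings was 14 for Acads, 12 for Ppara, 11 for Cpt1a and 10 for Acot4. It was 9 for Eci2, 7 for Etfdh, 6 for Acadl and 4 for Etfa.

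Among the members, their counterparts with a peroxisomal role, Eci2 and Decr2, pointed the other way. Eci2, an isomerase found in both organelles, stood at 88.2, 96.8 and 101 CPM with Quik-clot and at 115, 124 and 114 CPM with AKOC, without overlap (0.30 ± 0.10, adjusted p = 0.346). Decr2, the peroxisomal dienoyl-CoA reductase, averaged 82.1 ± 8.06 and 97.7 ± 7.92 CPM, and its groups overlapped (0.25 ± 0.12, adjusted p = 0.424). Outside the members, Ech1, another gene of fatty acid oxidation, had a negative log2 fold change with overlap (-0.90 ± 0.33, adjusted p = 0.363).

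**Figure D3:**
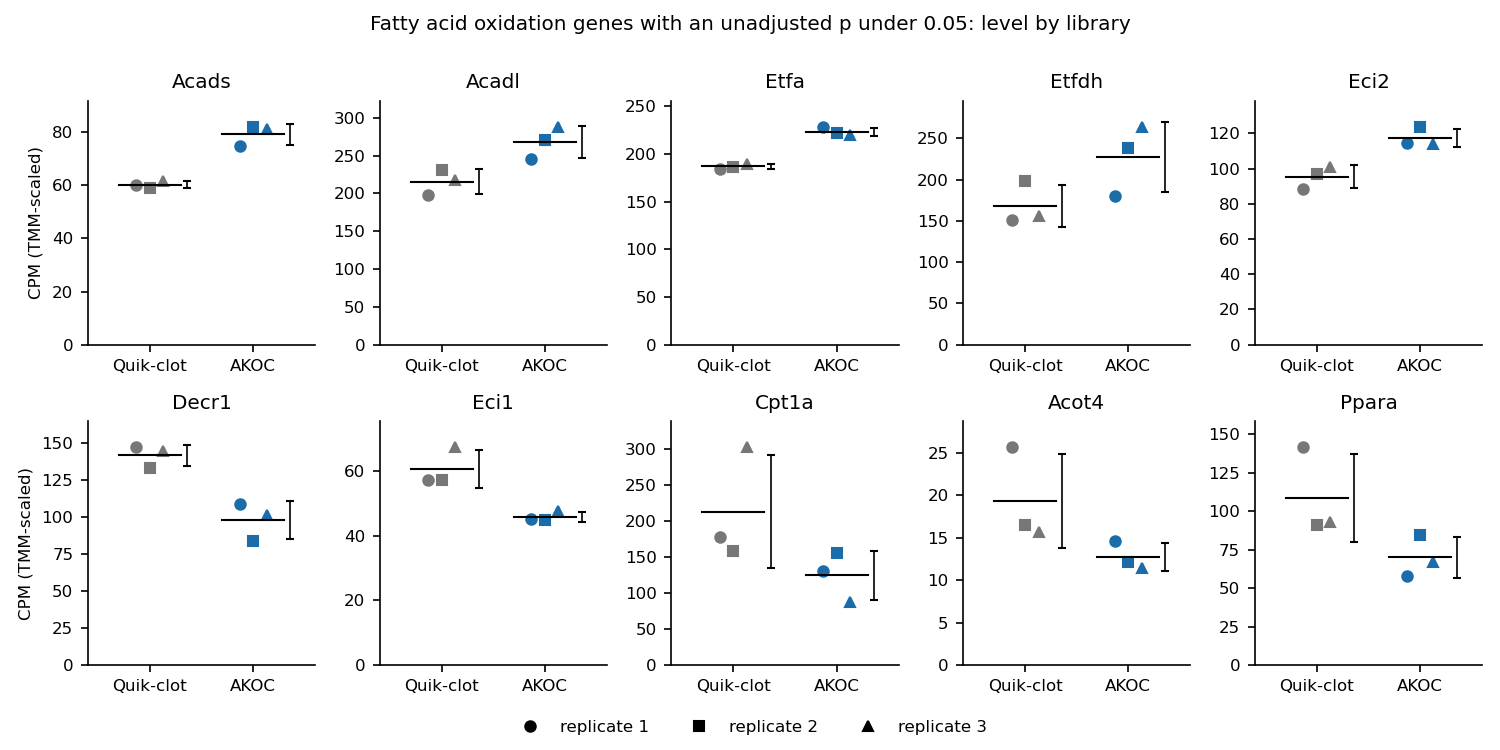
Scaled CPM in each library of the 10 members with an unadjusted p under 0.05; symbols mark the replicate, horizontal lines the mean of 3 libraries and error bars the SD. The upper row is higher and the lower row is lower after AKOC, and only Etfdh overlaps between dressings.

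Ratios between genes within a library do not depend on how libraries are scaled, and 8 pairs, chosen after the values had been seen, are given as a description. The FPKM of Acads relative to Decr1 was 0.278, 0.300 and 0.289 with Quik-clot and 0.467, 0.667 and 0.544 with AKOC. Acadl relative to Eci1 was 2.30, 2.68 and 2.16 against 3.64, 4.02 and 4.03. In both pairs every AKOC library had the higher ratio, as it must for pairs whose members lie apart in opposite directions. Etfa relative to its partner Etfb was 0.759, 0.804 and 0.832 against 0.998, 0.864 and 0.935, so the subunits of the flavoprotein did not keep 1 ratio across libraries. For the subunits of the trifunctional protein, Hadha relative to Hadhb was 1.09, 1.44 and 1.36 against 1.25, 1.33 and 1.46, and the groups overlapped. The peroxisomal oxidases Acox3 relative to Acox2 stood at 0.412, 0.417 and 0.430 against 0.522, 0.636 and 0.431, with AKOC higher but its replicate 3 next to Quik-clot replicate 3. The other 3 pairs, Cpt1a to Cpt2, Acadm to Cpt1a and Ehhadh to Hsd17b4, overlapped between dressings. A 3 against 3 exact permutation test could not give a two-sided p below 0.1 for any of these.

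**Figure D4:**
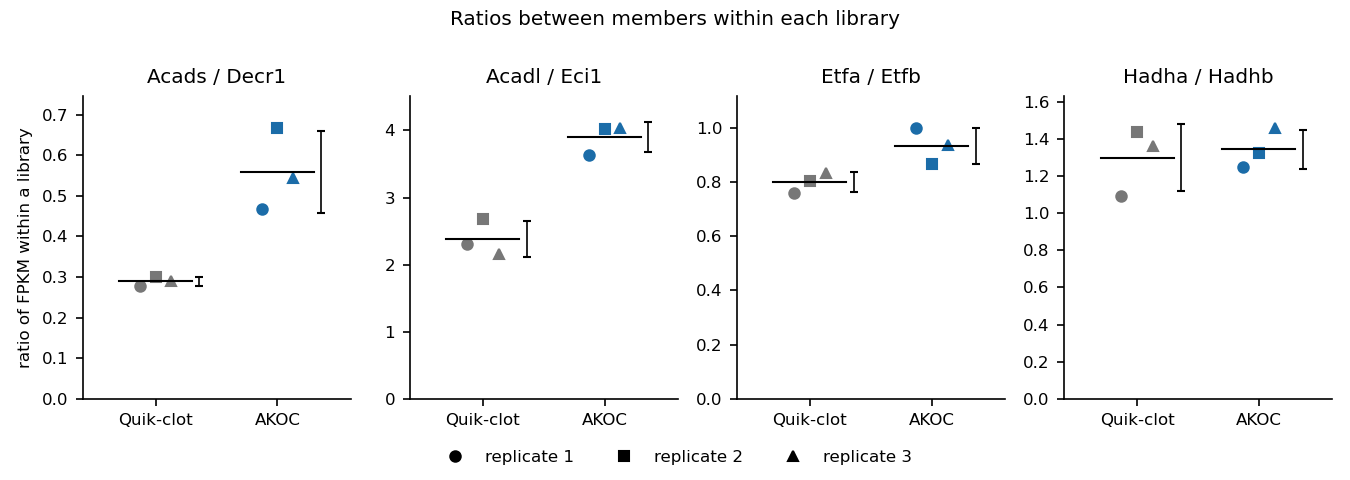
Ratio of FPKM between 2 members within each library for 4 of the 8 pairs; symbols mark the replicate, lines the mean of 3 libraries and error bars the SD. The ratios with Decr1, Eci1 and Etfb below the line are higher in all AKOC libraries, and that of Hadha to Hadhb overlaps.

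Among genes that bring substrates into the peroxisome and activate them, the abundant ones were lower on average after AKOC but overlapped between dressings. Slc27a2 stood at 1312, 896 and 1182 CPM with Quik-clot and 804, 840 and 922 CPM with AKOC (log2 fold change -0.40 ± 0.20, adjusted p = 0.441). Phyh stood at 1381, 933 and 1224 CPM and at 955, 975 and 757 CPM (-0.40 ± 0.21, adjusted p = 0.476). For each of these genes Quik-clot replicate 2 lay among the AKOC libraries while Quik-clot replicates 1 and 3 were higher. Without Quik-clot replicate 2 the log2 fold changes were -0.54 for either gene, with adjusted p of 0.218 and 0.256. Abcd3, the major acyl-CoA transporter of the peroxisomal membrane, averaged 151 ± 13.4 and 160 ± 3.69 CPM (interval -0.18 to 0.33). Amacr, the racemase needed for branched chains and bile acid precursors, averaged 273 ± 54.0 and 235 ± 67.5 CPM (interval -0.79 to 0.36).

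Abcd2, a transporter of very long-chain acyl-CoA, was rare in all libraries. It had 69, 6 and 73 counts with Quik-clot and 1, 5 and 8 counts with AKOC. Quik-clot replicates 1 and 3 stood apart from the other libraries, and Quik-clot replicate 2 lay within the AKOC range. DESeq2 gave a log2 fold change of -3.33 ± 0.98 (adjusted p = 0.0383). The edgeR test without the filter on low counts gave -3.31 ± 0.98 (adjusted p = 0.375).

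The peroxisomal oxidation cycle itself showed no member with an unadjusted p under 0.05. Ehhadh, the L-bifunctional enzyme and a strong PPAR-alpha target in rodents, stood at 467, 209 and 208 CPM with Quik-clot and at 431, 524 and 398 CPM with AKOC. Quik-clot replicate 1 lay within the AKOC range while the other Quik-clot libraries were lower. The log2 fold change was 0.62 ± 0.33 (adjusted p = 0.473). Leaving out Quik-clot replicate 1 gave 1.11 ± 0.17 (adjusted p = 0.407), and leaving out Quik-clot replicate 2 or 3 gave 0.42 or 0.41 (adjusted p = 0.578 and 0.688). Hsd17b4, the D-bifunctional enzyme, averaged 422 ± 23.9 and 458 ± 23.9 CPM (interval -0.18 to 0.41). The branched-chain oxidase Acox3 averaged 217 ± 23.2 and 252 ± 10.6 CPM without overlap (0.21 ± 0.12, adjusted p = 0.501). Acox2, the oxidase of bile acid precursors, averaged 453 ± 42.6 and 425 ± 65.2 CPM (interval -0.47 to 0.29).

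The thiolases that close the peroxisomal cycle were close between dressings or varied within one. Acaa1a averaged 151 ± 21.1 CPM with Quik-clot and 156 ± 24.9 CPM with AKOC. Since it has a closely related copy, Acaa1b, the summed level of both is also given, at 166 ± 17.7 and 179 ± 21.9 CPM with overlap. Scp2 stood at 769, 1375 and 1009 CPM with Quik-clot and 1051, 1382 and 1126 CPM with AKOC, and the second replicate was highest within each dressing (interval -0.43 to 0.77).

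Products leave the peroxisome as carnitine esters or free acids. Crot, the carnitine octanoyltransferase, stood at 51.9, 182 and 37.7 CPM with Quik-clot and at 207, 150 and 167 CPM with AKOC. Quik-clot replicate 2 fell among the AKOC libraries, and the other Quik-clot libraries were far below all of them. With all libraries the log2 fold change was 0.95 ± 0.55 (adjusted p = 0.504). Without Quik-clot replicate 2 it was 1.96 ± 0.21, with an adjusted p of 0.05005 that also misses the threshold. Without Quik-clot replicate 3 it was 0.58 (adjusted p = 0.683). Crat, which makes short-chain carnitine esters, averaged 38.5 ± 7.87 and 29.2 ± 11.5 CPM (-0.40 ± 0.29). The value for Crat ran from -0.19 without AKOC replicate 2 to -0.76 without AKOC replicate 1 (adjusted p = 0.839 and 0.321), and came to -0.26 without Quik-clot replicate 1. Acot4, a thioesterase, stood at 25.7, 16.5 and 15.7 CPM with Quik-clot and at 14.6, 12.1 and 11.4 CPM with AKOC, without overlap (-0.60 ± 0.21, adjusted p = 0.361). Without Quik-clot replicate 1, the highest library, it was -0.35 with an unadjusted p of 0.0643, and the unadjusted p of Acot4 was also above 0.05 without AKOC replicate 2 or 3. Summed over the related genes Acot1 to Acot4, the level was 39.8 ± 6.50 CPM with Quik-clot and 31.1 ± 2.20 CPM with AKOC, without overlap. Quik-clot replicate 1 was highest in this sum too. Acot8 averaged 5.42 ± 0.69 and 6.19 ± 0.64 CPM (0.19 ± 0.17).

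Of the last members, Fabp1 stood at 768, 1775 and 693 CPM with Quik-clot and at 1550, 1528 and 2612 CPM with AKOC. The pattern resembled that of Crot, with Quik-clot replicate 2 inside the AKOC range and Quik-clot replicates 1 and 3 below it. Its log2 fold change was 0.81 ± 0.42 (adjusted p = 0.459). Leaving out Quik-clot replicate 2 gave 1.38 ± 0.32 (adjusted p = 0.137), and leaving out AKOC replicate 3 gave 0.52 (adjusted p = 0.780). Pex11a, which promotes peroxisome division, averaged 14.5 ± 7.17 and 10.9 ± 2.49 CPM (interval -1.32 to 0.49), with a log2 fold change of -0.41 that came to -0.03 and -0.75 when Quik-clot replicates 1 and 2 were left out in turn and to -0.25 when AKOC replicate 2 was. Acad11, a dehydrogenase of very long and hydroxylated acids, averaged 169 ± 44.8 and 155 ± 8.66 CPM (interval -0.58 to 0.33).

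**Figure D5:**
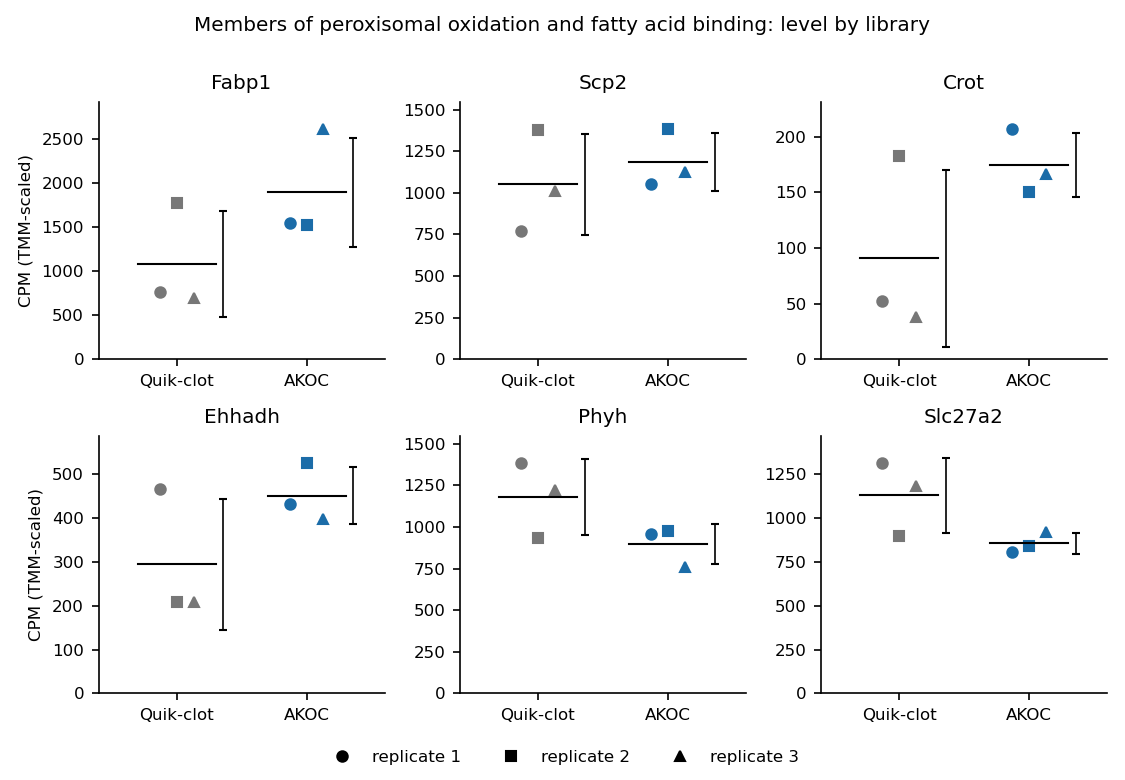
Scaled CPM in each library of 6 members with a wide spread within Quik-clot; symbols mark the replicate, horizontal lines the mean of 3 libraries and error bars the SD. Quik-clot replicate 2 lies among the AKOC libraries for Fabp1, Scp2, Crot, Phyh and Slc27a2 but Quik-clot replicate 1 does so for Ehhadh.

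Other genes of the pathway, from lists written beside the members' list, likewise had 0 genes past the adjusted threshold in edgeR and limma-voom. DESeq2 called Dbi, Acsl5 and Ppard higher, where it called 2.02% of all the genes it adjusted in either direction. Of 41 tested genes of acyl-CoA metabolism and fatty acid oxidation, 5 were higher and 4 lower at an unadjusted p under 0.05. That is 22.0%, against 12.5% of all genes tested, and the median log2 fold change was 0.09. The 4 of smallest p began with Dbi, which encodes the acyl-CoA binding protein, at 197, 354 and 293 CPM with Quik-clot and 578, 559 and 726 CPM with AKOC (1.14 ± 0.24, adjusted p = 0.281). Its groups lay well apart. Acsl5, a long-chain acyl-CoA synthetase, averaged 304 ± 22.8 and 531 ± 126 CPM, without overlap (0.80 ± 0.20). Pecr, a peroxisomal enoyl-CoA reductase of chain elongation, averaged 235 ± 54.5 and 344 ± 36.8 CPM, without overlap (0.55 ± 0.19). Slc22a5, the carnitine transporter of the cell membrane, averaged 18.3 ± 8.60 and 8.89 ± 1.75 CPM, with overlap (-1.04 ± 0.36).

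Among 25 partners and further targets of PPAR-alpha, 2 were higher and 4 lower at an unadjusted p under 0.05. That is 24.0%, against 12.5% of all genes tested, and the median was -0.0004. Ppard, the gene of the related receptor PPAR-delta, stood at 5.07, 4.88 and 5.40 CPM with Quik-clot and at 8.76, 20.7 and 24.8 CPM with AKOC (1.82 ± 0.35, adjusted p = 0.263). All AKOC libraries were above all Quik-clot libraries, and AKOC replicate 1 was nearest to them. Lower were Med1, a coactivator subunit (-0.37 ± 0.11), Slc25a42, the mitochondrial CoA carrier (-0.42 ± 0.12), and the coactivator gene Ppargc1b (-0.88 ± 0.30), each without overlap. Of 20 genes of peroxisome biogenesis and membrane, 1 was higher at an unadjusted p under 0.05, the membrane channel gene Pxmp2 (0.29 ± 0.12). In this list 0 were lower, and the median was -0.01. Over all genes tested, 6.78% were higher and 5.69% lower at this p.

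In bulk tissue, fewer cells of a type and less RNA per cell cannot be told apart. For the counts of markers that follow, 12.5% of all genes tested had an unadjusted p under 0.05. The 10 hepatocyte markers were all measured, with 4 positive and 6 negative log2 fold changes, and 1 of them, Hnf4a, had an unadjusted p under 0.05 (-0.41 ± 0.13). Their summed level of 88545 to 121625 CPM with Quik-clot and 94640 to 145902 CPM with AKOC was mostly albumin, Alb, at 62633 to 90199 and 73731 to 122898 CPM, while Cyp2e1, a cytochrome P450, had the most negative value (-1.06 ± 0.47). All 8 macrophage markers had negative log2 fold changes, 2 with an unadjusted p under 0.05, and their summed level was 807 to 1253 CPM with Quik-clot and 662 to 953 CPM with AKOC. Endothelial markers summed to 394 to 446 CPM and 343 to 382 CPM (5 of 6 negative and 6 of 6 with library totals only or on log2 FPKM, 2 with an unadjusted p under 0.05). T and NK cell markers summed to 10.9 to 32.6 CPM and 8.29 to 11.1 CPM, highest in Quik-clot replicate 2, with 5 of 5 tested negative and 2 with an unadjusted p under 0.05. Stellate and fibroblast markers (4 of 7 positive) summed to 118 to 254 and 227 to 289 CPM, and Pdgfrb alone had an unadjusted p under 0.05 (0.77 ± 0.26). Of 4 tested cholangiocyte markers (13.7 to 24.6 and 15.5 to 20.03 CPM), 3 were negative, and Spp1 alone had an unadjusted p under 0.05 (-1.34 ± 0.34) and was called lower by DESeq2. The 3 tested neutrophil markers (6.83 to 103 and 11.4 to 44.7 CPM) and the 5 B and plasma cell markers (83.3 to 106 and 66.1 to 117 CPM) had 0 with an unadjusted p under 0.05. Of 3 adipocyte genes measured, Cidec, a lipid droplet gene, ranged from 45.6 to 54.3 CPM with Quik-clot and from 37.6 to 45.8 CPM with AKOC, while Adipoq had no count in any Quik-clot library and at most 0.027 CPM in the AKOC libraries. The muscle gene Acta1 had the same counts as Adipoq, and the 3 muscle genes measured summed to at most 0.252 CPM. The clock activator Bmal1 ranged from 6.33 to 9.67 CPM with Quik-clot and from 20.6 to 36.7 CPM with AKOC, and the clock output gene Dbp from 20.2 to 28.3 and from 3.42 to 8.33 CPM. The part of cell composition and of the clock in the values of the oxidation genes was not tested.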

How the data were processed

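RNA-seq measured gene expression in 6 rat liver libraries, 3 per dressing, with groups and replicate numbers from the sample titles. The authors deposited raw whole-number counts per gene. FPKM were also deposited by the authors and equal count over length and library total within a relative error of 8.58e-07. The tools fastp, HISAT2 and HTSeq and the mRatBN7.2 build are named per the submitters' processing notes, without versions, strand setting or annotation. Gene coordinates on the authors' build are not given, and promoter windows come from RefSeq in another build.

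Total counts ran from 40402312 to 41455378. The filterByExpr function (minimum count 10, minimum total 15) kept 13872 of 20104 genes. Library sizes were scaled by TMM, and CPM use them. The test was the two-sided quasi-likelihood F test of edgeR 4.0.16 (R 4.3.3) with the dressing as the only term, adjusted over all genes tested by Benjamini-Hochberg and called under 0.05. SE is the absolute log2 fold change over the square root of F, and 95% intervals use the fit's degrees of freedom. Tests were checked on simulated counts with planted differences larger than that of any tested member. The check therefore does not cover differences of the size seen here. No 2 libraries of a dressing agreed within sampling noise.

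Members and lists were chosen with earlier results of these data known. Values per library are given for members with an unadjusted p under 0.05, for Ppara, Cpt1a and the 5 most abundant by FPKM, and up to 4 genes of smallest p are named from each wider list. The values per library of Abcd2, Ehhadh and Crot, single values of Acadm, and the roles used to order members were added after values were seen. From the wider lists, Acad9, Acadsb, Acad10, Ech1, Hadh and Hsd17b10 were also named after values were seen. The alternatives tried were the DESeq2 1.42.0 test, voom with library weights and limma-trend on log2(FPKM + pseudocount), with 1 or 0.1 (limma 3.58.1), edgeR's older quasi-likelihood code, median-of-ratios scaling, scaling by totals alone, no filter, a replicate block, other placement of members found in both organelles, and leaving out each library.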

Additional observations from a re-analysis of the deposited data

How the results depend on the processing

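Over 15 alternatives, 25 of 36 tested members kept the sign of their log2 fold change, the 10 with an unadjusted p under 0.05 among them. DESeq2 called 186 genes higher and 94 lower and 2 members. Leaving out a library gave 0 to 12 genes higher, 0 to 6 lower and 0 members called. The count of members higher at an unadjusted p under 0.05 was 2 with the legacy method, 0 with library totals only, 1 with log2 FPKM at either pseudocount, 9 with limma-voom, 5 with median-of-ratios scaling and 1 to 7 without a library, and that of lower members was 3 to 10 without a library. The share of all genes at this p was 12.0% with the legacy method, 8.66% with library totals only, 8.28% and 8.12% with log2 FPKM at pseudocounts of 0.1 and 1, 13.9% with limma-voom, 12.5% with median-of-ratios scaling and 7.62% to 17.4% without a library. Library totals only moved the median of all genes from -0.0148 to -0.0913. The median of mitochondrial members was -0.0598 with library totals only, -0.0520 and -0.0516 with log2 FPKM at pseudocounts of 0.1 and 1, and -0.0272 to 0.0522 without a library. That of peroxisomal members was -0.00955 with library totals only, 0.00495 and 0.00454 with log2 FPKM, and -0.00735 to 0.111 without a library. Placing Crat with the mitochondria and Acad11 and Eci2 with the peroxisomes gave medians of 0.0101 and 0.0766.

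Signs turned for members near 0. With library totals only the log2 fold change was -0.00741 for Hadha, -0.0706 for Hadhb, -0.0489 for Etfb, -0.00955 for Abcd3 and -0.0283 for Acaa1a. With log2 FPKM at pseudocounts of 0.1 and 1 it was -0.00544 and -0.00541 for Hadha, -0.0633 and -0.0626 for Hadhb, -0.0407 and -0.0405 for Etfb, and -0.0319 and -0.0316 for Acaa1a. Without a library it ran from -0.0882 to 0.0849 for Slc25a20, -0.0440 to 0.0622 for Hadhb, -0.235 to 0.0432 for Acaa2, -0.0200 to 0.0694 for Etfb, -0.119 to 0.0159 for Acot2, -0.208 to 0.00480 for Acox2, -0.0412 to 0.171 for Acaa1a, -0.00735 to 0.415 for Scp2 and -0.313 to 0.0694 for Acad11. The cause was not tested.

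The labels do not say whether the replicate numbers pair the libraries. Deviations of same-numbered libraries correlated at -0.072, -0.082 and -0.201, and no library correlated best with its own number. With 3 libraries per dressing, these correlations cannot exclude a shared animal, day or batch. With the replicate block, 1 gene was called higher, 0 members were called, and 3 members were higher and 5 lower at an unadjusted p under 0.05, against 9.49% of all genes. Crat had an unadjusted p of 0.0299 with the block and 0.204 without it. Depth differed 1.026-fold between libraries, and Abcd2 and Acot1 alone among the members were too rare for the main test.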
